A study of Mus musculus with 8 samples.

Results

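The 7 genes described here (Rtp4, Xaf1, Phf11d, Nmi, Ifi35, Ifi27l2a and Ifi27l2b) are interferon-inducible genes that were chosen by their lower log2 values on arrays of the Irf2 knockout group than on control arrays. They are 7 of the 21368 gene symbols that could be assigned to probes, and 9 probes report on them. Because the lower values chose the genes, the difference between the groups is described below and not tested. The check of that description against the data gave a mixed answer. Ifi27l2a was not well above background on any of the 8 arrays, so it has no measured level in either group, and Ifi35 differed by little with overlapping groups. The remaining 5 genes had lower values on at least 1 probe.

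The arrays held Cy3-labelled cDNA amplified from total RNA of mouse intestinal stem cells sorted for a high Lgr5 reporter signal. The Irf2_AhcKO group comprised 4 samples from mice with both Irf2 copies floxed (Irf2fl/fl), an AhCre transgene and the Lgr5-EGFP-Ires-CreERT2 allele, and the control group 4 samples from mice with the floxed Irf2 and the Lgr5 allele, given without AhCre in the labels. The deposited scanner data of control replicates 3 and 4 carry names that mention AhCre, so their genotype is not settled. AhCre is driven by a xenobiotic-inducible promoter that acts in many epithelial cells and not in stem cells alone, and both groups carry the tamoxifen-dependent Cre of the Lgr5 allele. Both groups received β-naphthoflavone on 5 consecutive days and were sampled 1 month later. Age is not given in the labels. Whether each sample came from its own mouse is not clear from the series' text, which names both 4 mice and 2 biological replicates, so the spread between samples may be partly technical.

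Interferons bind receptors whose kinases activate STAT proteins, and type I and type III signals assemble STAT proteins with IRF9 into a complex that binds interferon-stimulated response elements. IRF1 and IRF2 recognise closely related GAAA repeats, with IRF2 best known as a repressor that can also activate some genes. In the gut epithelium interferon-stimulated genes form a standing defence against enteric viruses. Rtp4 is a chaperone that brings G protein-coupled receptors to the cell surface and restricts some flaviviruses. Xaf1 is a zinc-finger protein that antagonises the caspase inhibitor XIAP, and Phf11d belongs to a mouse cluster of PHD-finger genes. Nmi and Ifi35 are partner proteins that bind each other through shared domains, and Nmi was named for its binding to N-Myc and STAT proteins. Ifi27l2a and Ifi27l2b are small hydrophobic proteins of the Ifi27 family.

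The sequence around the start site is shown for the 4 of the 7 genes that the RefSeq promoter table holds, because the motifs of interferon signalling were searched there. Bases -120 to 30 are given, counted from 1 at the start site with no base 0, on GRCm38.p6. Rtp4, Ifi27l2a and Ifi27l2b have no entry in the table. Phf11a and Phf11b, paralogues of Phf11d, and Ifit1, a gene with higher values in Irf2_AhcKO, are added for comparison. Capitals mark the matches to the response element core and to the GAAA repeats described next, and not those to the STAT dimer motif.
Xaf1, chr11:72301509-72301658, plus strand: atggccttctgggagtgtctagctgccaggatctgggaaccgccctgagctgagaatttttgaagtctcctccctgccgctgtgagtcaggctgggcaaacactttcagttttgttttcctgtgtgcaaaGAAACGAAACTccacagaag
Phf11d, chr14:59365461-59365610, minus strand: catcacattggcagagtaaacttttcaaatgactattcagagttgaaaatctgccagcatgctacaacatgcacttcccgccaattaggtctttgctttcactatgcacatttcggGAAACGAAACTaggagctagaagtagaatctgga
Ifi35, chr11:101448292-101448441, plus strand: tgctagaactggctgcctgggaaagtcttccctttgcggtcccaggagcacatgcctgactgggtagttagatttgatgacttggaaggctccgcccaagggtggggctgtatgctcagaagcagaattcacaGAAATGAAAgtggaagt
Nmi, chr2:51973179-51973328, minus strand: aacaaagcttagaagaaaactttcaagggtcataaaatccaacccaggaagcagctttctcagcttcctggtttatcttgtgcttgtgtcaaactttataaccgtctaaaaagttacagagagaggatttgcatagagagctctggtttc
Phf11a, chr14:59297493-59297642, minus strand: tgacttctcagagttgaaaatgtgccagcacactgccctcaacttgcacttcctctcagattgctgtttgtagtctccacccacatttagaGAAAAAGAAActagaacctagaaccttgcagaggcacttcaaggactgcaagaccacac
Phf11b, chr14:59341301-59341450, minus strand: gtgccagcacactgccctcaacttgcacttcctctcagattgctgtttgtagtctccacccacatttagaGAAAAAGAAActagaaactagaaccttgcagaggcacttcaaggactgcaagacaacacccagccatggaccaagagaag
Ifit1, chr19:34640769-34640918, plus strand: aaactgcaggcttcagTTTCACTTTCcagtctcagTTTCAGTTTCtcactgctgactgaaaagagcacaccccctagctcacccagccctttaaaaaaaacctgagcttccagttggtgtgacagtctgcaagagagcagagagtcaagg

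Searches covered windows from 250 bases before to 50 bases after the start site, on both strands. The core of the interferon-stimulated response element (GAAA, any 2 bases, GAAA) was in none of the 4 windows of Xaf1, Phf11d, Ifi35 and Nmi. It was in 26 of the 54 genes of a wider interferon-stimulated list that have a window (48.1%), and in 3.44% of all 32851 windows. Ifit1 held it at 2 places on the minus strand, and Phf11a and Phf11b held it as GAAAAAGAAA on the plus strand. Phf11c and Phf11d, in the same cluster, did not hold it. The STAT dimer motif TTCNNNGAA was in the Ifi35 window only among the 4, at bases 8 to 16. It was in 9 of the 54 list genes (16.7%) and in 8.3% of all windows.

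A tighter repeat, GAAANGAAA, was looked for after these sequences had been read. It was in 3 of the 4 windows, those of Xaf1, Phf11d and Ifi35, close to or just after the start site. It was in 11 of the 54 list genes (20.4%) and in 3.17% of all windows. In Ifi35 it begins at base 14 and shares its first letters with the STAT dimer match. The longest run of letters that the Xaf1 and Phf11d windows share on the same strand was GAAACGAAACT. It lies at bases 11 to 21 in Xaf1 and -4 to 7 in Phf11d. The run was picked because both windows hold it, so its presence in them is no finding. It was in 8 of the 32851 windows (0.0244%), these included, and in 3 of the 54 list genes (5.56%). The other genes with this run were Casp8, Helz2, Ddx58, Oas3, Fyco1 and Pnpt1. Their log2 differences between Irf2_AhcKO and control were 0.099 for Casp8, -0.40 for Helz2, -0.39 for Ddx58, -0.39 for Fyco1 and -0.042 for Pnpt1, none of which passed the test over all features, and Oas3 was not measured. A match is a string of letters and does not show that a factor binds there.

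Array values are log2 processed signals minus the array's 75th percentile, so that 0 is the array's 75th percentile. A difference is the value in Irf2_AhcKO minus that in control, fitted with limma and with the slide as a term. The arrays lay on 2 slides that were scanned apart, slide 1 with replicates 1 and 2 of both groups and slide 2 with replicates 3 and 4. The share of spots flagged well above background was 61.4% to 69.8% per array, with none saturated. Irf2 itself stood at 0.91 ± 0.23 in Irf2_AhcKO and 0.64 ± 0.26 in control (SD, n = 4 each), with a difference of 0.27 (SE 0.12, limma adjusted p = 0.429). Its 1 probe may lie outside the deleted part, in which case it checks nothing, and the groups below are those of the labels. The 6 stem cell markers measured, Lgr5 among them, were well above background on all 8 arrays.

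Rtp4 had the lowest difference of the 6 measured genes with the processed signal, though not with normexp, another background correction, where Nmi had the lowest. Its log2 signal was -6.37, -4.13, -3.93 and -5.23 on Irf2_AhcKO arrays 1 to 4, against -1.04, -2.38, -2.32 and -1.32 on control arrays 1 to 4. Every Irf2_AhcKO array lay below every control array, and Irf2_AhcKO arrays 1 and 4 were not well above background. In processed intensity these signals were 2.58, 13.0, 14.8 and 6.03 in Irf2_AhcKO, against 109, 43.7, 44.5 and 93.0 in control. The log2 difference was -3.15 (SE 0.60), with -3.53 on slide 1 and -2.76 on slide 2. With 2 arrays at the level of the background, its size depends on how background is removed: with normexp and an offset of 50, which draws dim signals together, it was -0.95.

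Xaf1 was read by 2 probes that did not give the same picture. The probe with the higher signal gave -4.17, -3.86, -3.79 and -3.67 in Irf2_AhcKO, against -1.71, -2.46, -3.27 and -2.07 in control, and was well above background on all 8 arrays. The groups did not overlap, and the Irf2_AhcKO arrays lay closer together (SD 0.21) than the control arrays (SD 0.67). The difference was -1.5 (SE 0.32), with -1.93 on slide 1 and -1.06 on slide 2, and -0.47 with normexp. The second probe was well above background on Irf2_AhcKO array 2 alone, where it stood at -3.14. Its other Irf2_AhcKO arrays lay between -6.51 and -6.32 and its control arrays between -6.38 and -6.16, so it gave no measured level in control.

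Phf11d had values of -3.21, -3.31, -4.21 and -3.61 in Irf2_AhcKO, against -2.40, -2.11, -3.28 and -2.50 in control. Over all arrays the groups overlapped, since control array 3 lay below Irf2_AhcKO array 1. On each slide taken alone both Irf2_AhcKO arrays lay below both control arrays. The difference was -1.01 (SE 0.20), with -1.0 on slide 1 and -1.02 on slide 2. It was -0.25 with normexp, and Irf2_AhcKO array 3 was not well above background.

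Nmi was measured well above background on all arrays and its difference had the smallest SE of the 6 measured genes. It stood at 0.41, 0.43, 0.072 and 0.28 in Irf2_AhcKO, against 1.57, 1.54, 1.12 and 1.34 in control. The highest Irf2_AhcKO array (0.43) lay far below the lowest control array (1.12). The group means were 0.30 ± 0.17 in Irf2_AhcKO and 1.39 ± 0.21 in control (SD, n = 4 each). The difference was -1.09 (SE 0.086), with -1.13 on slide 1, -1.05 on slide 2 and -0.97 with normexp.

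Ifi35, which encodes the partner of the Nmi protein, differed less. Its values were -1.77, -1.28, -1.27 and -1.22 in Irf2_AhcKO, against -1.30, -1.11, -0.69 and -1.02 in control. Control array 1 lay below 3 of the 4 Irf2_AhcKO arrays, so the groups overlapped. The difference was -0.36 (SE 0.13), with -0.32 on slide 1 and -0.39 on slide 2, and -0.22 with normexp. The differences of the 2 partners thus had the same sign and unequal size.

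Ifi27l2b was read by 2 probes, both well above background on all arrays. The brighter probe gave -1.43, -1.58, -0.70 and -0.74 in Irf2_AhcKO, against -0.26, -0.52, 0.47 and 0.17 in control. The groups did not overlap, and in both of them slide 2 read higher than slide 1. The difference was -1.08 (SE 0.10), with -1.11 on slide 1, -1.04 on slide 2 and -0.82 with normexp. The dimmer probe gave -2.21, -1.92, -1.35 and -1.31 in Irf2_AhcKO, against -0.48, -1.60, -0.98 and -0.63 in control. Its difference was -0.77, and control array 2 lay below Irf2_AhcKO arrays 3 and 4.

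The paralogue Ifi27l2a had processed intensities of 2.44, 3.24, 3.62 and 4.25 in Irf2_AhcKO, against 7.18, 6.74, 2.90 and 2.97 in control. None of these was well above background. The order of the groups was opposite on the slides, with control higher on slide 1 and Irf2_AhcKO higher on slide 2. No fold change is given for it, and calling it lower in Irf2_AhcKO is not borne out by these arrays.

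**Figure D1:**
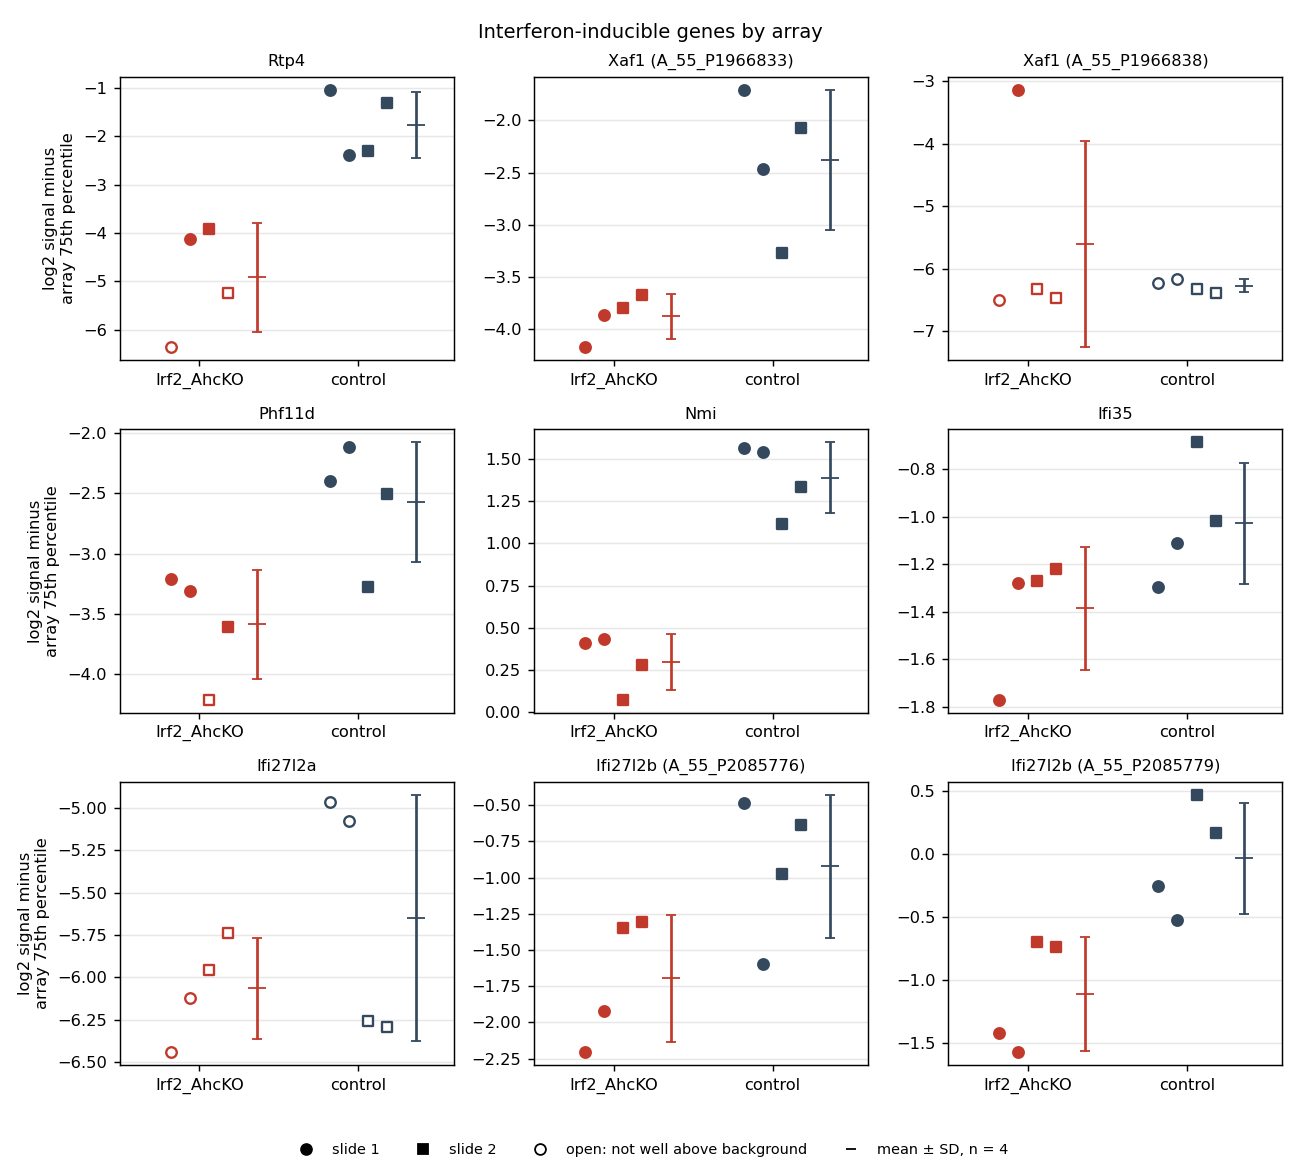
Log2 signal minus the array's 75th percentile (vertical axes, each with its own range) on 4 Irf2_AhcKO and 4 control arrays for the 9 probes of the 7 genes, with circles for slide 1, squares for slide 2 and open symbols for signals not well above background. Bars show mean ± SD (n = 4). The groups are apart for Rtp4, the first Xaf1 probe, Nmi and the second Ifi27l2b probe, and all 8 symbols of Ifi27l2a are open.

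Of the 6 genes that entered the fit over all features, 4 had every Irf2_AhcKO array below every control array, where 2.11% of all 25404 features did. Nmi and Ifi27l2b passed the adjusted threshold of 0.05 as lower, where 0.0433% of all features did. This count of 2 was 3 with normexp (Rtp4 added), 1 with no filter on dim probes (Nmi), 0 without the slide term and 0 with the replicate block. Leaving out 1 array gave 0 to 2, with 0 without any 1 of the 4 Irf2_AhcKO arrays, without control array 1 or without control array 2. Nothing can be read from these counts, because the genes were chosen for this difference. The median difference over the 6 genes was -1.09, beside -0.0024 over all features. Over all features 25 passed in either direction, and 0 passed when the replicate number was used as a block (limma, with 3293 at an unadjusted p below 0.05).

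The background correction separated the genes by brightness. Nmi kept most of its difference (-1.09 with the processed signal and -0.97 with normexp), as did the brighter Ifi27l2b probe (-1.08 and -0.82). The differences of the dimmer Rtp4, Xaf1 and Phf11d were over 3 times smaller with normexp. The sign stayed negative for each of the 6 measured genes on its main probe under both corrections.

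**Figure D2:**
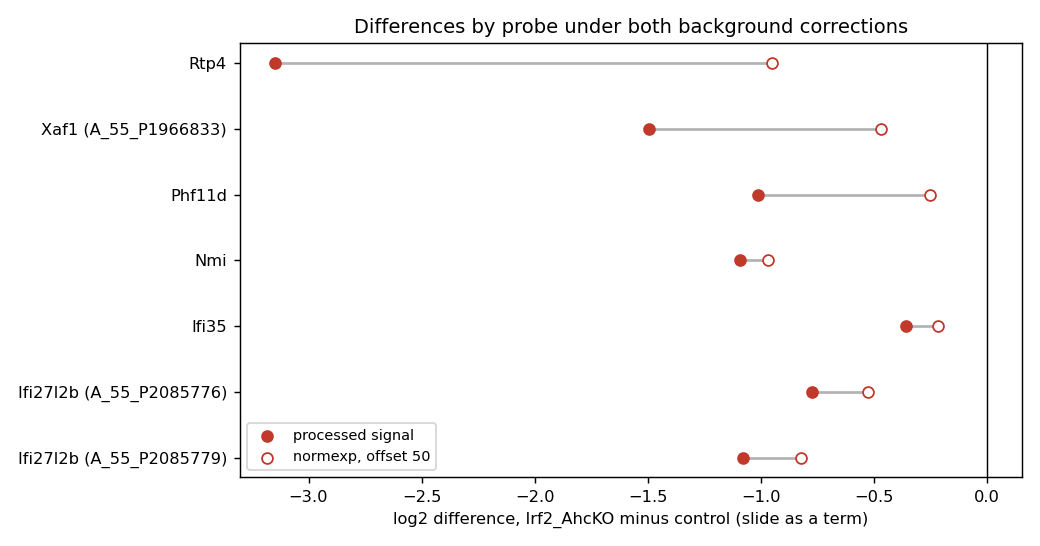
Log2 difference, Irf2_AhcKO minus control with the slide as a term (horizontal axis), for the 7 probes well above background on at least 4 of 8 arrays, from the processed signal (filled) and after normexp with an offset of 50 (open), joined by a line. Rtp4 moves from -3.15 to -0.95, while Nmi moves from -1.09 to -0.97.

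Whether the groups differed unequally on the slides is a question that the choice of genes did not use. None of the 6 measured genes passed a test of the slide by genotype interaction (limma, adjusted p = 0.999 for each, and 0 of 6 at an unadjusted p below 0.05), where 0% of all features passed and 1091 had an unadjusted p below 0.05. The largest estimate was that of Xaf1, whose difference was nearer 0 on slide 2 by 0.87 (SE 0.60). The interval that such an SE allows is wide, so unequal differences are not excluded. The control arrays of slide 2 are replicates 3 and 4, whose genotype is not settled. Slide and a possible difference in control genotype therefore cannot be told apart here. Irrespective of group, 3 of the 6 genes differed between slides, where 35.5% of all features did. Ifi27l2b was higher on slide 2 by 0.75 (SE 0.10, limma adjusted p = 0.00211), Nmi stood at -0.29 (SE 0.086, limma adjusted p = 0.0379) and Phf11d at -0.64 (SE 0.20, limma adjusted p = 0.0449), both lower on slide 2. For each of these 3 genes the slide difference was smaller in size than the group difference.

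The genes also differed in how they varied inside a group. With the mean of each slide and group removed, the values over the 8 arrays hold only 4 independent differences, so the correlations are given as a description. Nmi and Phf11d varied together (r = 0.92), as did Nmi and Xaf1 (r = 0.71). Nmi and its partner Ifi35 did not (r = -0.30), and Phf11d and Ifi27l2b ran in opposite ways (r = -0.72). With only the slide means removed, all 15 pairs had positive r, from 0.52 for Xaf1 with Ifi35 to 0.96 for Nmi with Ifi27l2b, which the common group difference produces. On this measure the genes most like Nmi were Zfp516, Khk and Dhrs1 (r = 0.99 each), those most like Rtp4 were Dusp19, Pcmtd2 and Atraid (r = 0.99, 0.99 and 0.98), and those most like Xaf1 were C1ra, Ndufa8 and Gid4 (r = 0.98 each). Phf11d was most like Mmut, Ces2g and Acsl1 (r = 0.98, 0.98 and 0.97), Ifi35 most like Trabd2b, Ilrun and Rarres2 (r = 0.98, 0.97 and 0.96), and Ifi27l2b most like Immt, Naca and Hagh (r = 0.99, 0.98 and 0.98). Each of these is the top of 15111 named features over 8 arrays. No gene of the interferon-stimulated list was among these 18. The list makes up only 52 of the 15111 named features, so nothing can be read from its absence.

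The paralogues did not all share the lower values. Ifi27, another hydrophobic protein gene of the family, overlaps Ifi27l2a in the RefSeq annotation. It stood at 0.23, 0.49, 0.84 and 0.57 in Irf2_AhcKO, against 3.81, 2.57, 2.52 and 2.39 in control. All Irf2_AhcKO arrays lay well below all control arrays, an order found in 2.11% of all features, and control array 1 was above the other controls. Ifi27 thus differed by -2.29 (SE 0.32, limma adjusted p = 0.0797), or by -2.83 on slide 1, -1.75 on slide 2 and -2.14 with normexp. It missed the adjusted threshold, and how well the probes separate the overlapping genes was not tested. RefSeq lists Ifi27 also as a synonym of Ifi27l2a, so the probes were assigned by accession.

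In the Phf11 cluster, Phf11b had values of -2.05, -1.33, -2.01 and -1.87 in Irf2_AhcKO, against -2.16, -2.47, -2.29 and -2.54 in control. Every Irf2_AhcKO array lay above every control array, as in 1.74% of all features. This order was opposite to that of Phf11d on each slide. The difference of Phf11b was 0.55 (SE 0.17, limma adjusted p = 0.33), which did not pass. Phf11a at 0.39 (SE 0.30) and Phf11c at -0.26 (SE 0.58) did not pass either, and each was well above background on 5 of 8 arrays. Among the relatives of Rtp4, Rtp2 had a difference of -0.050 (SE 0.10) and Rtp3 one of 0.56 (SE 0.28), neither passing, and Rtp1 was well above background on 1 control array only.

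**Figure D3:**
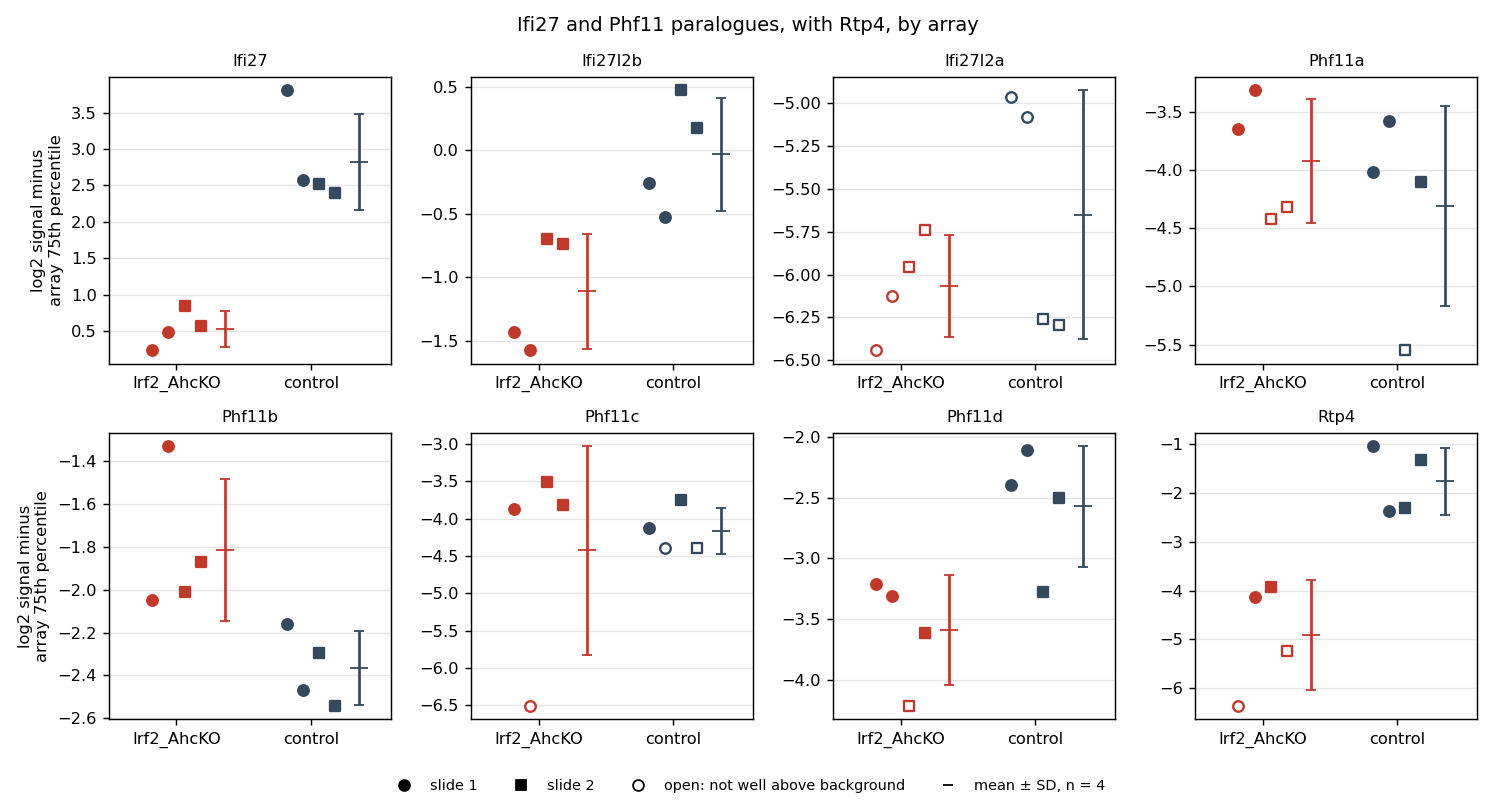
Log2 signal minus the array's 75th percentile on 4 Irf2_AhcKO and 4 control arrays for 3 genes of the Ifi27 family, 4 of the Phf11 cluster and Rtp4 (circles for slide 1, squares for slide 2, open symbols not well above background, bars mean ± SD with n = 4). Ifi27 and Ifi27l2b have all Irf2_AhcKO arrays below all control arrays (2.11% of all features do), while Phf11b has them all above (1.74% do).

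The partners that the proteins are known to act on showed no passing difference. XIAP, the caspase inhibitor that Xaf1 antagonises, had a difference of -0.0061 (SE 0.091) for its gene Xiap. Of the STAT genes whose products bind Nmi, Stat3 stood at 0.49 (SE 0.091, limma adjusted p = 0.146), Stat5b at 0.065 (SE 0.14) and Stat5a at -0.19 (SE 0.14). For Stat3 every Irf2_AhcKO array lay above every control array, as in 1.74% of all features. Mycn, the gene of the N-Myc protein after which Nmi is named, had a difference of -1.03 (SE 0.24, limma adjusted p = 0.219). For Mycn every Irf2_AhcKO array lay below every control array, as in 2.11% of all features. In all, 0 of 15 measured relatives and partners passed (limma, 4 at an unadjusted p below 0.05), with 7 negative and 8 positive differences. Of 15 measured interferon receptors and signal transducers, 0 passed as well, 4 were negative and 11 positive, and 2 had an unadjusted limma p below 0.05, namely the receptor subunit gene Ifnar1 at -0.65 and the kinase gene Jak2 at 0.28.

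Genes next to the 7 on the chromosome were examined after the values of the 7 were known. Of 13 flanking protein-coding genes in RefSeq order, 10 were measured, 6 with a negative and 4 with a positive difference, with a median of -0.11, and none passed. Besides Ifi27, only Rbm43, an RNA-binding motif gene next to Nmi, stood far from 0. Its processed intensities were 2.11, 2.21, 7.98 and 9.83 in Irf2_AhcKO, none of them well above background, against 80.7, 46.5, 49.8 and 42.4 in control. With the processed signal Rbm43 was at least 5.07-fold lower in Irf2_AhcKO (limma adjusted p = 0.0774). That bound was taken against a floor. On each Irf2_AhcKO array the floor is the higher of its own signal and the dimmest signal well above background. With normexp its log2 difference was -0.82, smaller than that bound, so the bound is one of the processed signal only. The gene on the other side of Nmi, Tnfaip6, had a difference of 0.14.

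The wider list of interferon-stimulated genes, without the 7, did not share the direction of the 6 measured ones. Of its 52 measured genes, 2 rose, Ifit1 and Ifit1bl1, and 0 fell, where 0.0551% and 0.0433% of all features did (limma, with 13 positive and 13 negative at an unadjusted p below 0.05). Ifit1 was well above background on no control array, so it met the filter only through the group where it is high. With every array required to be well above background, Ifit2 and Ifit1bl1 rose and Ifi27 fell among 43 measured genes of the list. Under that filter 46 of 22136 features passed. The list held 25 positive and 27 negative differences, and its median was -0.0086, beside -0.0024 over all features. In 8 of the 52 (15.4%) every Irf2_AhcKO array lay below every control array, and in 9 (17.3%) every one lay above, where 2.11% and 1.74% of all features did. These shares are above those of all features, but the list was chosen with earlier results of these data known, so nothing can be read from that. Dhx58, among the lower, met the filter only through control, and Ifit1, among the higher, only through Irf2_AhcKO. No set test was made.

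With the processed signal, the lowest genes of the list were Ifi27, Trim30d, Dhx58 and Oas1a. Trim30d stood at -1.90 (SE 0.39) and at -0.37 with normexp, and in Irf2_AhcKO it exceeded background on 1 array only. Dhx58, which modulates sensing of viral RNA, had no signal well above background in Irf2_AhcKO. With the processed signal it was there at least 1.90-fold lower, against the same kind of floor as for Rbm43. With normexp its log2 difference was -0.29, smaller than that bound. Oas1a, an oligoadenylate synthetase, stood at -1.59 (SE 0.33) and at -0.64 with normexp, and none of these 4 passed. At the high end with the processed signal were genes of RNA-binding Ifit proteins. Ifit1 signal exceeded background on all Irf2_AhcKO arrays and on none of the controls. It passed with the processed signal (limma adjusted p = 0.0107), where 2.41-fold was the lower bound of its rise. With normexp the log2 difference of Ifit1 was 0.46, smaller than that bound, so the bound is one of the processed signal only. Ifit1bl1 had a difference of 2.55 (SE 0.26, limma adjusted p = 0.0329), or 1.68 with normexp. Ifit2 at 2.55 (SE 0.30, limma adjusted p = 0.0516, 1.75 with normexp) did not pass. Ifit3 at 2.73 (SE 0.75) did not pass either, was well above background on 2 of 4 control arrays, and stood at 0.72 with normexp. With normexp Dtx3l (0.80) and Parp9 (0.74) lay above Ifit3 and Ifit1, so these orders depend on the background correction. Of the genes with a promoter window, the 20 measured ones that hold the response element core had 11 positive and 9 negative differences, and the 24 without it 11 positive and 13 negative.

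**Figure D4:**
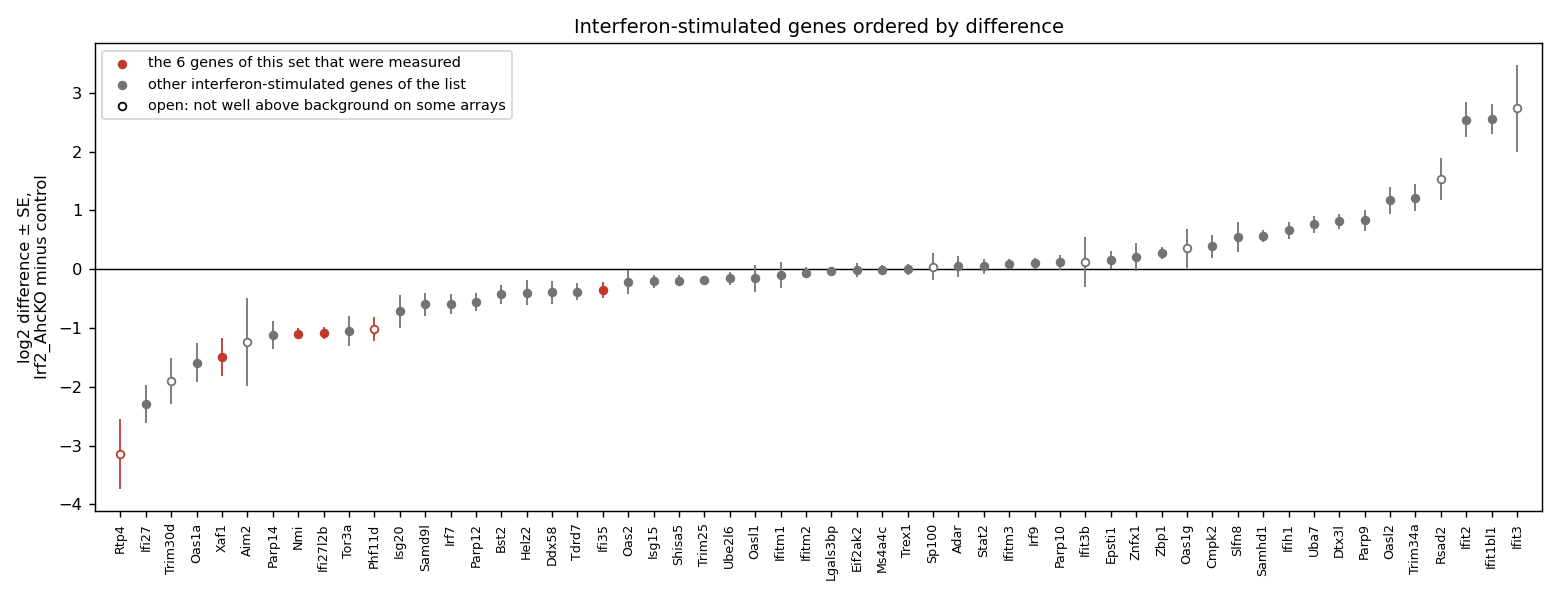
Log2 difference ± SE from the processed signal, Irf2_AhcKO minus control (vertical axis), for 50 interferon-stimulated genes (grey) and the 6 measured genes of the set (red), in ascending order, with open symbols for 9 genes not well above background on some arrays. Dhx58 and Ifit1, with only a bound in 1 group, are not drawn. Rtp4 is at the low end with -3.15 but at -0.95 with normexp, where Ifi27 at -2.14 lies below it, and Ifi35 is the red point nearest 0 with -0.36.

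Most markers of absorptive enterocytes were lower beside the lower values of the 6 measured genes of the set. The summed level of 10 enterocyte markers ran from 6.26 to 6.58 in Irf2_AhcKO and from 6.70 to 10.54 in control, on the log2 scale. Control array 4 gave the highest of these sums, and without it the control range was 6.70 to 6.99. Of the 10 markers 9 had a negative difference, with a median of -0.78, and none passed. In 4 of them (40%) every Irf2_AhcKO array lay below every control array, where 2.11% of all features did. The positive marker was Anpep at 0.33, and for it every Irf2_AhcKO array lay above every control array, as in 1.74% of all features. Without control array 4 the differences were -3.03 for Rtp4, -1.34 for Xaf1, -0.86 for Phf11d, -1.06 for Nmi, -0.42 for Ifi35 and -1.15 for Ifi27l2b. In sorted cells measured in bulk, fewer cells of a type and less RNA per cell cannot be told apart, and the part of enterocyte RNA in these differences was not tested.

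Markers of other cells differed less or the other way. The summed stem cell markers ran from 6.38 to 6.51 in Irf2_AhcKO and from 6.42 to 6.61 in control. The 7 pan-epithelial markers ran from 7.06 to 7.37 in Irf2_AhcKO and from 7.07 to 7.56 in control, so over all arrays both lists overlapped between the groups. On slide 1 alone both lists were lower in Irf2_AhcKO without overlap, and on slide 2 alone they overlapped. Lymphocyte markers, 5 of 9 measured, ran from 3.04 to 3.20 in Irf2_AhcKO and from 2.44 to 3.02 in control, without overlap, with Cd3d, Cd3g, Cd8a and Cd2 not measured. Tuft cell markers (6 of 7) ran from 2.30 to 3.68 in Irf2_AhcKO and from 1.97 to 2.54 in control. Myeloid markers (9 of 10) ran from 7.0 to 8.13 in Irf2_AhcKO and from 7.02 to 8.06 in control. Over all arrays the tuft cell and myeloid sums overlapped between the groups, as did the remaining lists. On each slide alone the tuft cell sums did not overlap. They were 2.30 and 2.94 in Irf2_AhcKO against 2.13 and 1.97 in control on slide 1, and 3.68 and 2.81 in Irf2_AhcKO against 2.54 and 2.46 in control on slide 2. B cell markers (5 of 7) ran from -0.88 to -0.49 in Irf2_AhcKO and from -1.05 to -0.71 in control, and Paneth cell markers (4 of 4) from 4.55 to 5.90 in Irf2_AhcKO and from 4.73 to 5.44 in control. On slide 2 alone the B cell sums were higher and the myeloid sums lower in Irf2_AhcKO, without overlap. None of these markers passed, and their part in the differences was not tested.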

How the data were processed

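Scanner data of 8 Agilent 1-colour arrays were used. They came from Agilent Feature Extraction 11.5.1.1 per the submitters' processing notes, and per the file headers the deposited processed intensity is background-subtracted and detrended but not normalized between arrays. In the series table that the authors deposited, each array's intensity is multiplied by 1 constant and stays linear. Per the labels' protocols, RNA was amplified with a whole-transcriptome kit, which can distort the levels of single transcripts. Of 55681 probes, 28331 were named through their RefSeq accession in a gene table of assembly GRCm38.p6. The array design is on mm9, so no probe coordinates are given, and probe sequences were not analysed here. Promoter sequences are from RefSeq (GRCm38.p6).

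From the log2 of the processed intensity, the array's 75th percentile over non-control spots was subtracted. Spots flagged as outliers were left out of a probe's mean, unless all its spots on the array were flagged. The 59305 non-control spots served 55681 probes, so most probes had 1 spot and kept its value even when flagged. Probes well above background on at least 4 of 8 arrays were kept, 1 per gene, the one of highest mean (25404 features, 15111 named). Features were tested with linear models in limma 3.58.1 (R 4.3.3), with the slide as a term, moderated by eBayes, two-sided, at a Benjamini-Hochberg adjusted p of 0.05 over all features, and the code was checked on simulated data. Same-numbered arrays of the groups deviated together (r across genes 0.46, 0.49, 0.52 and 0.53), mostly through the slide (0.046 and 0.21 with slide means removed), so a fit with the replicate number as a block was run too. Arrays have no read depth, and their number limits precision.

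The 7 genes and the lists were chosen with earlier results of these data known. One gene of the lists is not reported here and is left out of their counts. The text names the 7 genes, Irf2, their paralogues, the 4 highest and 4 lowest genes of the interferon-stimulated list and any that passed, and the 3 features most like each gene. Partner, transducer and flanking genes, the tighter repeat and the run shared by Xaf1 and Phf11d were singled out after their values or sequences were seen. Normexp used the median spot and background intensities, since the files hold no mean signal. Other alternatives were quantile normalization, the series table, other filters, other slide terms and leaving out arrays.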

Additional observations from a re-analysis of the deposited data

Results flagged for a closer look

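In each group of 4 arrays the highest or lowest array was compared with the others, over 48 groups of genes named here, and an array was singled out when its gap to the nearest other exceeded 0.829 of the group's range. Chance singles out about 1 in 20 groups. Irf2_AhcKO array 2 read -3.14 on the second Xaf1 probe, while the other Irf2_AhcKO arrays lay between -6.51 and -6.32. Irf2_AhcKO array 1 read -1.77 for Ifi35, below the other 3 at -1.28 to -1.22. Control array 1 read 3.81 for Ifi27, above the other control arrays at 2.39 to 2.57. Irf2_AhcKO array 2 read -6.51 for Phf11c, below the others at -3.87 to -3.50. Control array 1 read -2.89 for Ifit2, below the other control arrays at -2.0 to -1.98.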

How the results depend on the processing

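Features that passed over the whole array numbered 25 in the reported fit, 133 with normexp, 46 when every array had to be well above background, 7 with no filter on dim probes, and 0 on slide 1 alone, on slide 2 alone and with the replicate number as a block (limma, with 2539, 1337 and 3293 at an unadjusted p below 0.05). Leaving out 1 array gave 0 to 25, with 0 without Irf2_AhcKO array 1, Irf2_AhcKO array 2 or control array 2, 1 without Irf2_AhcKO array 3, 3 without Irf2_AhcKO array 4, 11 without control array 1 and 6 without control array 3. In the interferon-stimulated list the fallen gene count of 0 became 1, Ifi27, with normexp, with the filter on all 8 arrays and without control array 1 (range 0 to 1 over left-out arrays). The count of 2 that rose became 6 with normexp (Dtx3l, Ifit2, Ifit1bl1, Oasl2, Ifit3b and Ifit1), 1 with no filter (Ifit1), and 0 on each slide alone and with the replicate block, and ranged from 0 to 2 over left-out arrays. It stayed at 2 with the filter on all 8 arrays, but with Ifit2 in place of Ifit1. The 3 genes of the set with a slide difference became 1 with quantile normalization and 1 with no filter, and 1 to 3 over left-out arrays. The interaction count stayed at 0 under the alternatives run, 0 to 0 over left-out arrays. Only the second Xaf1 probe, well above background on 1 of 8 arrays, reversed a sign, at 0.66. The other settings gave -3.53 to -0.95 for Rtp4, -1.93 to -0.47 for the first Xaf1 probe and -1.17 to -0.25 for Phf11d. They gave -1.15 to -0.97 for Nmi, -0.46 to -0.22 for Ifi35 and -1.15 to -0.77 for Ifi27l2b. The causes of these shifts were not tested. Rtp4 and Phf11d have no value under the filter on all 8 arrays. Signal near the background limits the size of the Rtp4, Xaf1 and Phf11d differences.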
